A study of Homo sapiens with 6 samples.

Results

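TPRG1L, TMEM245 and ANKFN1 are 3 of the 58174 human genes counted in T98G cells that carried a short hairpin RNA (shRNA) against the protein kinase DYRK1A, and they were selected on measured values, as being among the largest changes between shDYRK1A and shControl cells. T98G is an established human glioblastoma cell line. All cells had been infected with a lentivirus, selected with puromycin and left to recover, and the groups were 3 libraries with the control hairpin (shControl 1A, 1B and 1C) and 3 with the hairpin against DYRK1A (shDYRK1A 1A, 1B and 1C). The cells were pools of infected cells and not edited clones, both groups carried a hairpin, and nothing in the labels says that the 3 libraries of a group came from separate cultures, so the spread between them may be technical. Drosophila Kc167 cells had been mixed in before RNA extraction, and the normalized counts used below are raw counts divided by the size factor of each library that the authors derived from the fly reads. Because the contrast that chose the 3 genes is the contrast shown here, their changes are given as a description and carry no test.

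TPRG1L, also known as Mover, is a vertebrate protein of the presynaptic terminal that attaches to synaptic vesicles, binds the scaffold Bassoon, and dampens transmitter release. TMEM245 encodes a little-studied protein with many membrane-spanning segments, and an intron of it holds the microRNA gene MIR32. ANKFN1 encodes a large protein with ankyrin repeats and a fibronectin type III domain. Its fly counterpart, wide awake or banderuola, acts on a GABA receptor in clock neurons and on cell polarity in dividing neuroblasts.

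The libraries held between 33708297 and 42154438 gene counts, and the size factors ran from 0.821 to 1.03 in shControl and from 1.06 to 1.21 in shDYRK1A. Unmapped reads made up 8.44 to 15.65% of a library, with shDYRK1A 1B at the top of that range. Here and below, the values of a group are listed in the order 1A, 1B, 1C. In CPM, which relates a count to the total gene counts of its own library, DYRK1A stood at 46.3, 46.7 and 47.2 with the control hairpin and at 40.4, 33.8 and 38.6 with its own, so the targeted mRNA was lower in every library of its group. Its fitted change was -0.73 ± 0.147 (log2, SE) on the spike-in scale and -0.34 ± 0.0594 with TMM scaling, which sets the human genes of all libraries level. On the spike-in scale, 1149 of the 9697 genes past the abundance filter fell further than DYRK1A. For 63.6% of those 9697 genes, all shDYRK1A libraries lay below all shControl libraries on that scale. Of the glial markers examined, VIM, CD44 and EGFR were abundant, at 132 CPM or more in every library, NES and OLIG2 lay between 1.06 and 2.02 CPM, and the defining astrocyte and stem cell genes GFAP, S100B and SOX2 were at or below 0.0949 CPM. The neuronal marker RBFOX3 had 1 count in all 6 libraries together. The 6 neuronal markers summed to between 51.2 and 53.3 CPM in shControl and between 26.6 and 32.2 CPM in shDYRK1A, and they did not move as one. MAP2 averaged 36.1 and 15.5 CPM and SNAP25 10.6 and 5.8, whereas SYP averaged 2.16 and 3.93, GAD1 1.68 and 2.59, and TUBB3 1.74 and 1.71. Their part in the changes described here was not tested. Immune (PTPRC, CD68) and endothelial (PECAM1, VWF) markers did not exceed 0.534 CPM.

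TPRG1L (ENSG00000158109) is a compact gene on the plus strand of chromosome 1, at chr1:3625002-3630127 in GRCh38. Raw counts of 1309, 1393 and 1427 were obtained with the control hairpin, against 462, 383 and 470 with the DYRK1A hairpin. Divided by the size factors, the shControl counts became 1594, 1581 and 1389 normalized counts, and those of shDYRK1A 436.7, 354.8 and 387.1. The groups did not overlap, and the lowest shControl library stood 3.18-fold above the highest shDYRK1A library. Normalized counts averaged 1521 ± 114 for the control hairpin and 392.9 ± 41.2 for the DYRK1A hairpin (SD, n = 3 each). The fitted log2 fold change was -1.95 ± 0.16 (SE), so that shDYRK1A cells held 25.8% of the control level. Within each group TPRG1L was the steadiest of the 3 genes on this scale, with a coefficient of variation of 7.52% in shControl and 10.5% in shDYRK1A. In shControl that order hung on the scale. With TMM scaling the largest log2 deviation from the shControl mean was 0.041 for TPRG1L and 0.027 for TMEM245.

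TMEM245 (ENSG00000106771) lies on the minus strand at chr9:109015152-109119945 and was the most abundant of the 3 in counts. Its shControl libraries held 4163, 4603 and 4395 raw counts, and its shDYRK1A libraries 1605, 1197 and 1834. Normalized, these were 5068, 5223 and 4279 against 1517, 1109 and 1511. Again no library of one group reached the other, with a gap of 2.82-fold between the closest pair, and shDYRK1A 1B stood below its 2 companions. The means were 4857 ± 506 and 1379 ± 234 normalized counts (SD, n = 3 each). The fitted log2 fold change was -1.82 ± 0.145 (SE), or 28.4% of the control level.

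ANKFN1 (ENSG00000153930) spans chr17:55882301-56511659 on the plus strand and, unlike the other two, was higher in shDYRK1A. It had 284, 241 and 329 raw counts in the shControl libraries, whereas the shDYRK1A libraries held 1425, 1048 and 1403. Normalized, these were 345.7, 273.5 and 320.3 against 1347, 971 and 1156. The groups were separated by 2.81-fold at their closest point, and shDYRK1A 1B was once more the lowest of its group. The means were 313.2 ± 36.7 and 1158 ± 188 normalized counts (SD, n = 3 each), a fitted log2 fold change of 1.89 ± 0.164 (SE) and a 3.7-fold higher level. The abundance filter asked for a mean over all 6 libraries above 10, in normalized counts set to CPM of the mean library size, and all 3 members passed it. On that scale ANKFN1 had 7.97 in shControl and TPRG1L had 9.997 in shDYRK1A, so each passed through the group in which it was high, whereas TMEM245 was above 10 in both groups.

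**Figure D1:**
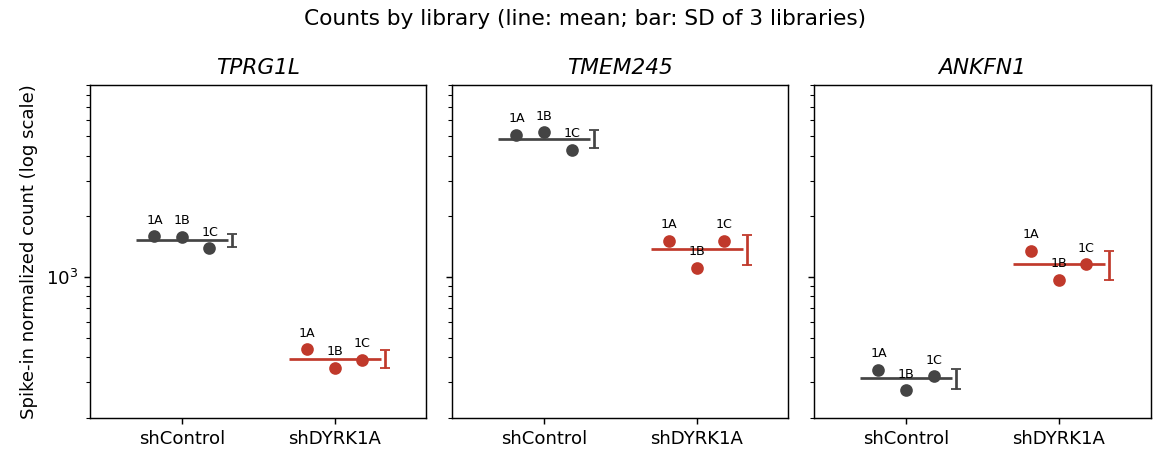
Spike-in normalized counts (vertical axis, log scale) of TPRG1L, TMEM245 and ANKFN1 in the 3 shControl and 3 shDYRK1A libraries; points are libraries, lines are group means and bars are SDs. TPRG1L and TMEM245 sit lower in every shDYRK1A library, ANKFN1 sits higher, and no library of one group reaches the other.

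The place of the 3 genes among all genes follows from the way they were chosen and is given for orientation. Of 9697 genes past the filter, 1386 (14.3%) were called lower in shDYRK1A, a call being a Benjamini-Hochberg adjusted p under 0.05 from the edgeR quasi-likelihood fit together with a log2 fold change below -0.7, and 27 (0.278%) were called higher by the mirrored rule. All shDYRK1A libraries lay below all shControl libraries for 63.6% of genes and above them for 1.59%. The middle gene of the whole distribution had a log2 fold change of -0.40. Equal numbers of T98G cells had been mixed with the fly cells, and in bulk samples such as these fewer cells of a type and less RNA per cell cannot be told apart. Relative to the median gene, the log2 fold changes came to -1.55 for TPRG1L, -1.41 for TMEM245 and 2.29 for ANKFN1.

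Ranked by log2 fold change among called genes whose groups did not overlap, TPRG1L was rank 1 of the falls. It was followed by ITGB1 (the integrin beta 1 chain) at -1.86, CHAC1 (a glutathione-degrading enzyme) at -1.83 and RPIA (ribose 5-phosphate isomerase) at -1.82. The distance from TPRG1L to ITGB1 was smaller than the standard error of either gene, 0.16 and 0.136. TMEM245 came at rank 5, within 0.01 of RPIA and of SOAT1 (which esterifies cholesterol) at -1.81, a distance far smaller than the standard errors of these genes, 0.145 to 0.171. Among the 27 rises ANKFN1 was rank 2, between MMP1 (interstitial collagenase) at 2.08 and FGG (the fibrinogen gamma chain) at 1.71. These distances were of the order of the standard errors of the 3 genes, 0.138 to 0.164. All these spike-in standard errors include shifts that the genes of a library share, such as a median deviation of -0.17 in shControl 1C. They therefore do not measure the spread of a distance between genes, and whether neighbouring ranks can be told apart was not tested. With TMM scaling the log2 fold changes were -1.55 ± 0.0586 for TPRG1L, -1.41 ± 0.0671 for TMEM245 and 2.27 ± 0.102 for ANKFN1 (SE), and their ranks among the calls of that scaling were 1 of 187, 4 of 187 and 2 of 121. The change of scale shifted all genes by nearly the same amount, the median going from -0.40 to 0.002. The ranks could hardly change, so their agreement is no support for the 3 genes, which were chosen on this contrast.

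**Figure D2:**
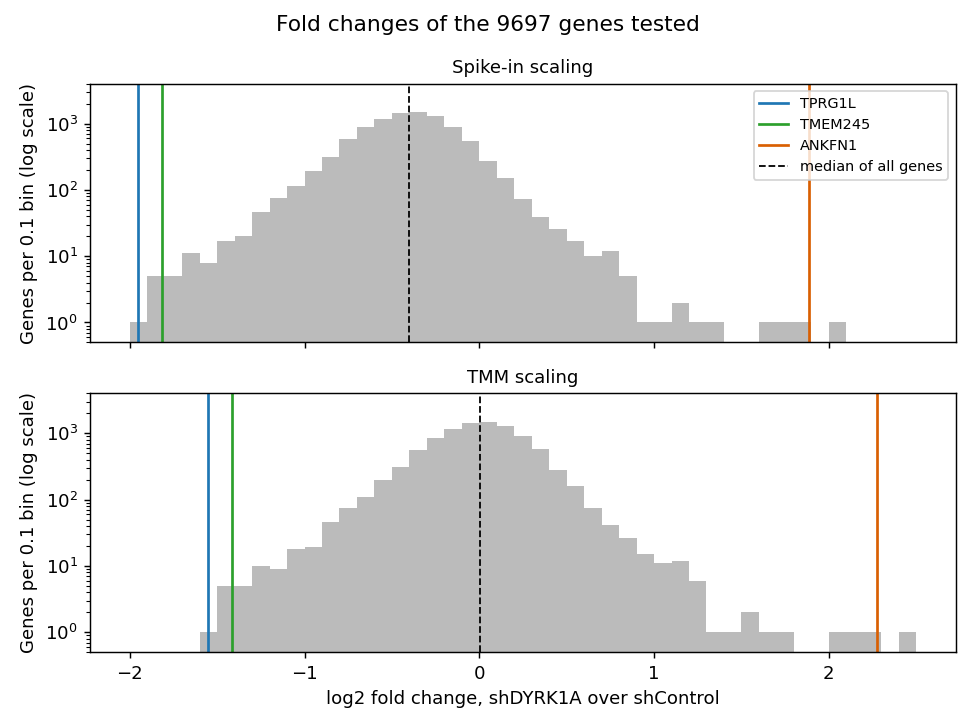
Number of genes (vertical axis, log scale) per 0.1 step of log2 fold change, shDYRK1A over shControl (horizontal axis), for the 9697 genes tested, with spike-in scaling above and TMM scaling below; coloured lines mark the 3 genes and the dashed line the median of all genes. The whole distribution shifts from a median of -0.40 to one of 0.002 between the scales, with TPRG1L and TMEM245 in the left tail and ANKFN1 in the right tail of both.

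Levels of different genes were compared per kilobase of exon, with 2414 exonic bases for TPRG1L, 9484 for TMEM245 and 7498 for ANKFN1 in GENCODE v29. In shControl, TPRG1L stood at 13.9 ± 0.369 CPM per kb and TMEM245 at 11.3 ± 0.204, and their libraries did not overlap. ANKFN1 stood at 0.929 ± 0.153 CPM per kb (SD, n = 3), which only 0.815% of the 9693 annotated genes past the filter undercut. ANKFN1 had passed that filter only through shDYRK1A, and TPRG1L only through shControl. The percentile of each in its low group, here and below, is therefore low in part through the choice of genes. In shDYRK1A the means were 4.82 ± 0.114 CPM per kb for TPRG1L, 4.56 ± 0.382 for ANKFN1 and 4.30 ± 0.522 for TMEM245. The ranges of these 3 levels overlapped, from 3.74 CPM per kb (TMEM245 in 1B) to 4.94 (TPRG1L in 1A). Within each shDYRK1A library TPRG1L was the highest, though narrowly in 1A (4.90 for ANKFN1) and in 1C (4.81 against 4.78 for TMEM245). ANKFN1 was above TMEM245 in 1A and 1B and below it in 1C. In percentiles of the same genes, TPRG1L went from 66.9 in shControl to 29.6 in shDYRK1A, TMEM245 from 59.8 to 25.7, and ANKFN1 from 0.815 to 27.6. This scale counts every annotated exon, and the meeting of the 3 levels in shDYRK1A depended on it. With the length of the principal transcript alone (2414, 7980 and 2426 bases in turn), a choice made after seeing the data, the shControl levels were 13.9 ± 0.369, 13.4 ± 0.243 and 2.87 ± 0.474 CPM per kb for TPRG1L, TMEM245 and ANKFN1. The shDYRK1A levels were then 4.82 ± 0.114, 5.11 ± 0.62 and 14.1 ± 1.18 CPM per kb, with ANKFN1 above the other two in every library. ANKFN1 went from percentile 5.9 to 50.8 of the 9372 genes with such a transcript. On both lengths ANKFN1 was the lowest of the 3 in shControl, while its place among them in shDYRK1A was set by the length used.

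**Figure D3:**
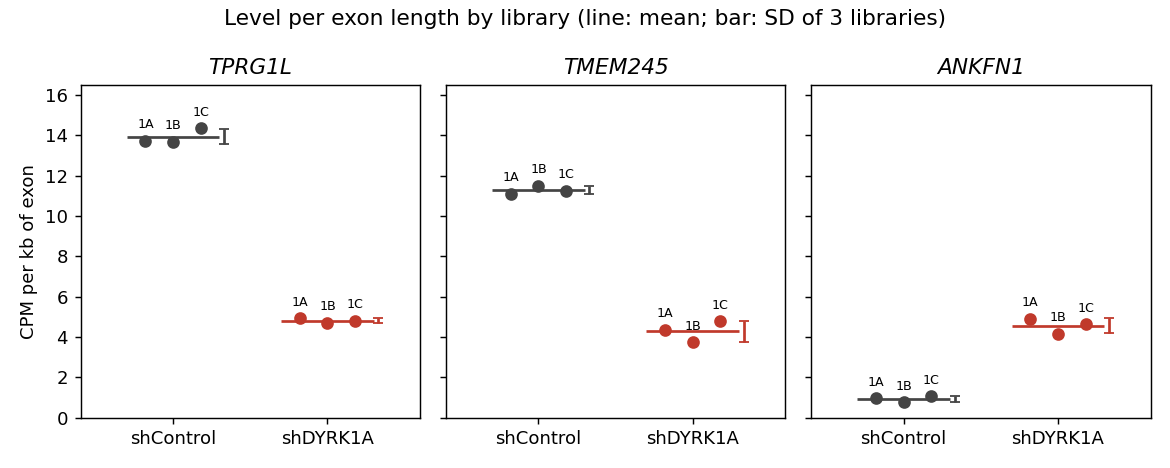
CPM per kilobase of exon (vertical axis, linear from 0) in each of the 6 libraries; points are libraries, lines are means and bars are SDs of 3 libraries. The shControl levels lie apart, while the shDYRK1A levels of all 3 genes fall between 3.74 and 4.94 CPM per kb; divided by the principal transcript alone, ANKFN1 averages 14.1 CPM per kb in shDYRK1A and does not meet the others.

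The spread within groups was partly common to all genes. In shDYRK1A 1B, TPRG1L deviated by -0.14, TMEM245 by -0.30 and ANKFN1 by -0.24 log2 units from the group mean on the spike-in scale, where the median gene deviated by -0.14. With TMM scaling, the deviations in that library were -0.001 for TPRG1L, -0.16 for TMEM245 and -0.10 for ANKFN1. ANKFN1, the gene with the fewest counts, also had the widest spread in shControl after TMM scaling, from -0.27 in 1B to 0.21 in 1C.

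The profiles most like each gene were sought over the 6 libraries, as the root-mean-square (RMS) difference in log2 normalized count after subtracting the shControl mean. For TPRG1L these were ITGB1 at an RMS of 0.0883, SOAT1 at 0.116 and RPIA at 0.123, and TMEM245 itself was at rank 6 with 0.133. For TMEM245 they were AMIGO2 (an adhesion protein with immunoglobulin-like domains) at 0.0508, HSPA13 (a microsomal chaperone) at 0.0557 and SOAT1 at 0.0623. For ANKFN1 they were MMP1 at 0.202, MMP3 (stromelysin) at 0.221 and FGG at 0.233, so its nearest profiles were looser than those of the other two. With 27 genes called higher against 1386 lower, few genes could lie near a large rise. Whether the looseness comes from this or from ANKFN1 itself was not tested. The measure is a description over 6 libraries that all the genes share, and a large change between the groups dominates it.

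The promoters are printed because the study concerned a palindromic motif at promoters that carry DYRK1A. Each stretch is the 250 bases before the RefSeq transcription start in GRCh38.p14, read 5′ to 3′ on the strand of the gene, and all 3 genes matched the RefSeq set of 35116 promoters. They cover chr1:3624765-3625014 (TPRG1L, plus strand), chr9:109119948-109120197 (TMEM245, minus strand) and chr17:56153225-56153474 (ANKFN1, plus strand). Capitals mark matches, on either strand, to the palindrome TCTCGCGAGA or to its first 7 bases alone (TCTCGCG), to the CCAAT box, to the GC box (GGGCGG), to a TATA box written TATAAA, to the core of an ETS site (CCGGAAG), and to a ZNF143-like core (ACTACAA).
TPRG1L: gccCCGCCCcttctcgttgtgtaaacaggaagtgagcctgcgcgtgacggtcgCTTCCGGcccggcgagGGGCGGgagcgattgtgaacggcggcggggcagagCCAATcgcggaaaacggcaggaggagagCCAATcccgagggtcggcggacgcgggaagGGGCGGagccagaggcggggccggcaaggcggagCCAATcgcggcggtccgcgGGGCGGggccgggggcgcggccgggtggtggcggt
TMEM245: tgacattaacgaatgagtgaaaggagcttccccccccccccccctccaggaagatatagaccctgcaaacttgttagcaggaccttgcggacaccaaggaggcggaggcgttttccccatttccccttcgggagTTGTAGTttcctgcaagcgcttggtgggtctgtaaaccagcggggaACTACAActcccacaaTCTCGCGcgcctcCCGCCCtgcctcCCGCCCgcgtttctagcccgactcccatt
ANKFN1: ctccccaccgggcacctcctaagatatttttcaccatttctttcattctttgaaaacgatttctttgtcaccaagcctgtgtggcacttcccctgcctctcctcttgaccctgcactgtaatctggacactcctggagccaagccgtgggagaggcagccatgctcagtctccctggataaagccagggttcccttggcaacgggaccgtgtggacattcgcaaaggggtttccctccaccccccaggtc

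The TPRG1L stretch was 74.8% G and C with 37 CpG dinucleotides, more than in 96% of RefSeq promoters of this length. It held 3 CCAAT boxes, which 32% of all promoters contain at least once, 4 GC boxes (42.6% of promoters) and 1 ETS core (8.52%). TMEM245 had 58.8% G and C and 15 CpGs. It held TCTCGCG, the first 7 bases of the palindrome, once, 54 bases before the start (2.95% of promoters), ACTACAA on both strands at 116 and 70 bases before the start (2.47%), and 2 GC boxes. ANKFN1, at 55.2% G and C with 6 CpGs, held none of these letters. The full 10-base palindrome, present in 0.373% of promoters, was in none of the 3 windows, and TATAAA, present in 10.7%, was in none either. The RefSeq start of ANKFN1 lies 271174 bases inside the GENCODE v29 gene, which has 9 transcripts, and which start T98G cells use was not measured. ACTACAA was added to the search after the TMEM245 letters had been read, and a match says only that the letters are present.

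The transcripts differed as much as the promoters. The principal GENCODE transcript of TPRG1L had 5 exons and 2414 bases, of which 1524 were 3′ untranslated region (UTR), and encoded 272 residues. That of TMEM245 had 18 exons and 7980 bases with a 3′ UTR of 5308 bases, longer than in 93.8% of 9372 genes past the filter, and encoded 879 residues. That of ANKFN1 had 17 exons and 2426 bases with a 3′ UTR of 99 bases, longer than in only 4.13% of genes, and encoded 763 residues, from a locus that is longer than 99.5% of them. Thus the principal transcripts of TMEM245 and ANKFN1, with like numbers of exons, stood at opposite ends of 3′ UTR length. ANKFN1 has 9 transcripts, and which 3′ UTR T98G cells use was not measured. The sites below are likewise those of the principal transcripts. The 3′ UTR word TGAAGT had come out of an earlier scan of these same fold changes, so its sites are shown as sequence and carry no weight. TPRG1L held 2 and TMEM245 held 6, while ANKFN1 held 0. Among genes with a 3′ UTR of 0.8 to 1.25 times the length, 10.6% of 1404 had at least 2 sites, 3.13% of 638 had at least 6, and 1.79% of 224 had any. Over all 9200 3′ UTRs of at least 50 bases, 38.8% held the word. Both TPRG1L sites and the only TMEM245 site that ran on to TGAAGTA (in capitals, with 10 bases on either side of the 6-base word) began at bases 596 and 1492 of the TPRG1L 3′ UTR and at base 2777 of the TMEM245 3′ UTR.
TPRG1L site at 596: atgggtgaccTGAAGTgacacttttt
TPRG1L site at 1492: gttcctttttTGAAGTtgtcattaaa
TMEM245 site at 2777: cgtacgttgaTGAAGTAgaagtcatt

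MIR32 sits in intron 14 of the 17 introns of the principal TMEM245 transcript, at chr9:109046229-109046298 on the same strand and 73647 bases from the start of the gene. Its mature arm miR-32-5p shares bases 2 to 8, the seed by which a microRNA recognises its targets, with 5 other human microRNAs in the RefSeq set. They are shown, with the seed in capitals, because TMEM245 hosts 1 of the 6 microRNAs with this seed.
hsa-miR-32-5p: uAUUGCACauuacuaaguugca
hsa-miR-25-3p: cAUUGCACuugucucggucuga
hsa-miR-92a-3p: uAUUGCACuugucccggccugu
hsa-miR-92b-3p: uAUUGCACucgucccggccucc
hsa-miR-363-3p: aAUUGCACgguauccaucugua
hsa-miR-367-3p: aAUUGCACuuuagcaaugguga

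The gene row of MIR32 held 0 counts in all 6 libraries, which were made from polyadenylated RNA and do not measure mature microRNAs. Of the other hosts, MCM7 (a subunit of the replicative helicase, host of miR-25) and LARP7 (which binds the 7SK RNA, host of miR-367) passed the filter. MCM7 had a log2 fold change of -0.53 ± 0.131 (edgeR adjusted p = 0.000227) and LARP7 of -0.45 ± 0.145 (adjusted p = 0.00429), so neither passed the fold threshold and both lay near the median of all genes. With TMM scaling the values were -0.12 and -0.05. MIR17HG, host of miR-92a, had 39 to 72 counts per library and was not tested.

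The genes around the 3 members had no part in the choice and were tested in the same fit over 9697 genes. Within 500 kb of the 3 loci lay 31 other genes of the deposited table, 14 of them past the filter. Of these, 2 (14.3%) were called lower by edgeR and 0 higher (0 higher also at an unadjusted p below 0.05 and with DESeq2), a share equal to that over all genes. The median log2 fold change of the 14 was -0.325, against -0.40 over all genes, and all 14 had a negative sign, as did 93.6% of all genes.

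Both called neighbours lie downstream of TMEM245. CTNNAL1, which encodes alpha-catulin, an alpha-catenin relative, begins 1623 bases past the 3′ end of TMEM245 on the same strand. It had 6819, 6113 and 5172 normalized counts with the control hairpin and 3364, 2887 and 3287 with the DYRK1A hairpin, with no overlap between the groups. CTNNAL1 fell by 0.92 ± 0.138 on the log2 scale (edgeR adjusted p = 6.58e-10). FAM206A, 64.4 kb from TMEM245, had 1211, 1213 and 1025 normalized counts in shControl and 530.3, 386.3 and 440.7 in shDYRK1A. It fell by 1.34 ± 0.159 on the log2 scale (edgeR adjusted p = 2.38e-15). Both calls stood with each library left out in turn. With TMM scaling the values were -0.95 for FAM206A, still a call, and -0.52 for CTNNAL1, under the fold threshold. The spans of these 2 genes overlap by 8176 bases on opposite strands, so their reads are told apart only as far as the counting used the strand. IKBKAP, a scaffold of the Elongator complex 81 kb away, had a log2 fold change of -0.31 ± 0.142 (edgeR adjusted p = 0.0474) and was not called. The 3 tested genes beside TMEM245 thus ranged from a change of more than 1 log2 unit to a value above the median of all genes.

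None of the tested genes within 500 kb of TPRG1L or ANKFN1 was called by edgeR or by DESeq2, 5 in the first case and 6 in the second. Over all genes edgeR called 14.3% lower and 0.278% higher, so the absence of calls among so few genes lies near that share. In each case 3 had a negative change at an unadjusted p below 0.05, as did 67.4% of all genes. WRAP73, a centrosomal protein gene that converges on TPRG1L with its end 640 bases away, had a log2 fold change of -0.29 ± 0.155 (edgeR adjusted p = 0.0891). Its means were 890.1 ± 76.4 normalized counts in shControl and 728.6 ± 73.1 in shDYRK1A. TPRG1L, across the shared 3′ side, was at -1.95. RP11-46F15.2, an antisense RNA whose start lies 259 bases upstream of TPRG1L, had 10 to 27 counts per library and was not tested. The nearest upstream gene past the filter was FAM213B, 1033533 bases away, at -0.38 ± 0.148 (adjusted p = 0.0176). On the upstream side of TMEM245 it was TXN (thioredoxin), 1123866 bases away, at -0.59 ± 0.129 (adjusted p = 2.58e-05).

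Next to ANKFN1, PCTP (a phosphatidylcholine transfer protein) ends 39.5 kb upstream and had a log2 fold change of -0.28 ± 0.155 (edgeR adjusted p = 0.0944). TRIM25 (a ubiquitin ligase of antiviral signalling) lies 376 kb downstream and had -0.31 ± 0.137 (adjusted p = 0.0356), without reaching the fold threshold. The 6 tested neighbours of ANKFN1 all had negative signs, from -0.56 to -0.22, opposite to ANKFN1. With TMM scaling the median of these 6 was 0.103, so the sign of the group hung on the scale, while ANKFN1 was higher with both. RP11-502F1.1, annotated inside the ANKFN1 span on the same strand, had at most 8 counts in a library and shared no exon base with it.

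**Figure D4:**
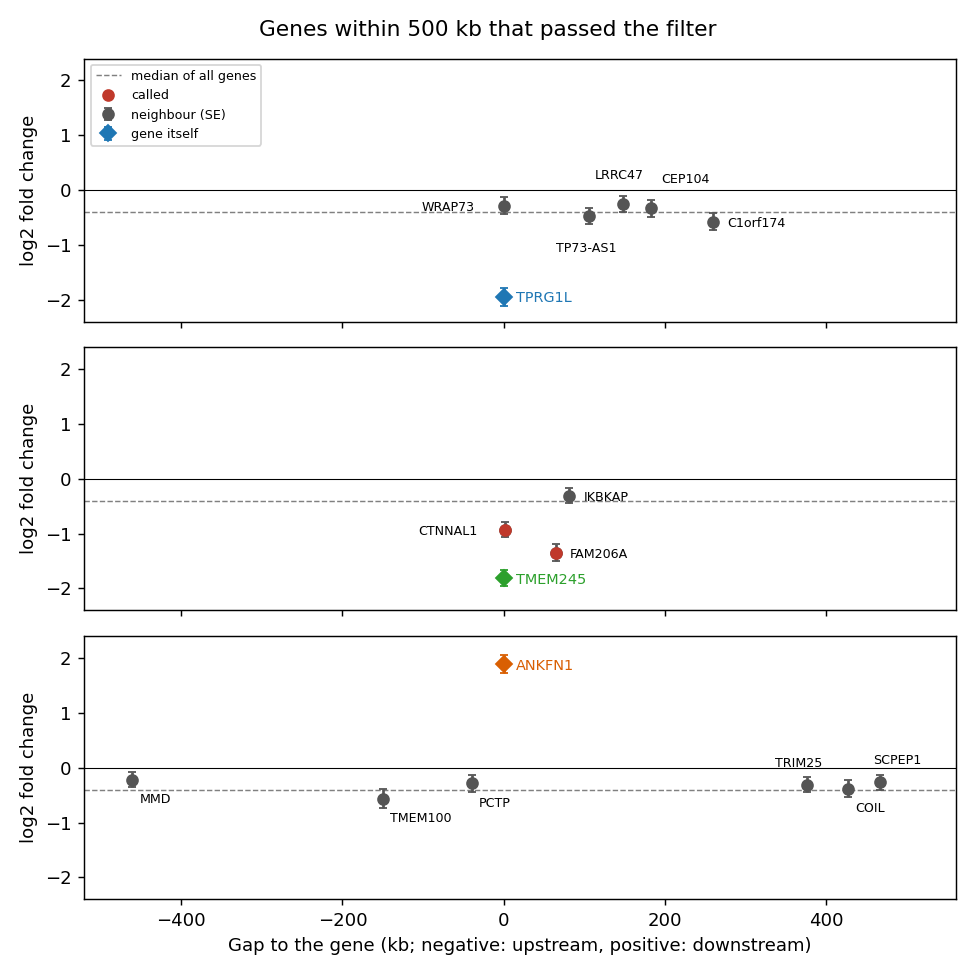
Log2 fold change, shDYRK1A over shControl on the spike-in scale (vertical axis), of each tested gene within 500 kb against its gap to the member in kb (horizontal axis, upstream negative), with bars of 1 SE; diamonds are the members, red points called genes and the dashed line the median of all genes. CTNNAL1 and FAM206A lie between TMEM245 and the other genes, while the neighbours of TPRG1L and ANKFN1 lie near the median of all genes.

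The machinery around TPRG1L was read from a list of 68 other genes of synaptic vesicles, the active zone and SNARE-mediated fusion, of which 37 passed the filter. Of the 37, 5 (13.5%) were called lower and 0 higher, near the 14.3% over all genes, and DESeq2 called the same numbers. At an unadjusted p below 0.05, 24 of the 37 were lower and 0 higher, where 67.4% of all genes were lower and 1.26% higher. The median log2 fold change of the 37 was -0.395, against -0.40 over all genes. The 5 were SYPL1, a synaptophysin relative found outside neurons, SYT11, a synaptotagmin that does not bind calcium, NAPB, a cofactor in the disassembly of SNARE complexes, DNM1, the dynamin of vesicle endocytosis, and INPP5F, an inositol phosphatase. SYPL1 had 5066, 5038 and 4295 normalized counts with the control hairpin and 2836, 2350 and 2497 with the DYRK1A hairpin, the groups not overlapping. SYPL1 fell by 0.91 ± 0.14 (edgeR adjusted p = 2.49e-09) on the log2 scale, and the other 4 had log2 fold changes from -0.82 to -0.79 with adjusted p of at most 3.42e-06. At the other end was UNC13B, a priming factor for vesicle fusion, at 0.32 ± 0.166 (adjusted p = 0.0742). With TMM scaling the calls turned to 0 lower and 1 higher, UNC13B at 0.72. The number called lower was 9 of 37 when shControl 1C was left out, where 21.6% of all genes were called lower, and 10 when shDYRK1A 1A was, where 21.5% were.

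Partners of TPRG1L were looked at by name, outside the rule for named genes and after their values were seen. BSN, the Bassoon gene, had 16 to 34 counts per library, and TPRG1, the closest relative of TPRG1L, had 32 to 70, so neither was tested. The neuronal vesicle markers SYP and SNAP25 were under the filter too, with SNAP25 at 10.6 CPM in shControl and 5.8 in shDYRK1A and SYP at 2.16 and 3.93.

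Because the fly counterpart of ANKFN1 has been tied to cell polarity and to GABA receptors, both groups were read. The list held 31 polarity and asymmetric division genes with counts, and FANK1, a relative of ANKFN1 by its domains that did not pass the filter. Of the 31, 18 passed, and 0 were called in either direction by edgeR or DESeq2, against 14.3% of all genes called lower. At an unadjusted p below 0.05, 17 of the 18 were lower and 0 higher, against 67.4 and 1.26% of all genes. Their median log2 fold change was -0.391, near the -0.40 of all genes. The lowest was PRKCI, the atypical protein kinase C of the PAR complex, at -0.68 ± 0.143 (edgeR adjusted p = 1.34e-05), just short of the fold threshold. The highest was NUMB, an asymmetrically inherited Notch inhibitor, at -0.23 ± 0.142 (adjusted p = 0.135). The number called lower was 1 when shControl 1C was left out and 2 when shDYRK1A 1A was, against 21.6 and 21.5% of all genes in those fits. The median of the 18 with TMM scaling was 0.0067, against 0.002 over all genes.

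Of 19 GABA-A receptor subunit genes only 3 passed the filter, and 6 had no count in any library. GABRA2 was the highest of the 3, at -0.16 ± 0.133 (edgeR adjusted p = 0.258), and averaged 249 CPM. GABRE, the epsilon subunit, had 4212, 4472 and 3622 normalized counts in shControl and 2977, 2101 and 2383 in shDYRK1A, and no library of one group reached the other. GABRE fell by 0.72 ± 0.141 on the log2 scale (edgeR adjusted p = 2.71e-06), barely past the threshold. It dropped under the fold threshold without shControl 1B (-0.66), without shDYRK1A 1B (-0.61) and without shDYRK1A 1C (-0.69), and with TMM scaling it had -0.32.

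The sizes for the 3 members were recomputed with each alternative. Leaving out each library in turn, the log2 fold change ran from -2.03 to -1.89 for TPRG1L, from -1.90 to -1.68 for TMEM245 and from 1.76 to 2.0 for ANKFN1. TMEM245 was nearest to 0 and ANKFN1 farthest from it without shDYRK1A 1B, the lowest shDYRK1A library for both. Scaling on the human genes gave the largest shift, which moved TPRG1L and TMEM245 towards 0 and ANKFN1 away from it.

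**Figure D5:**
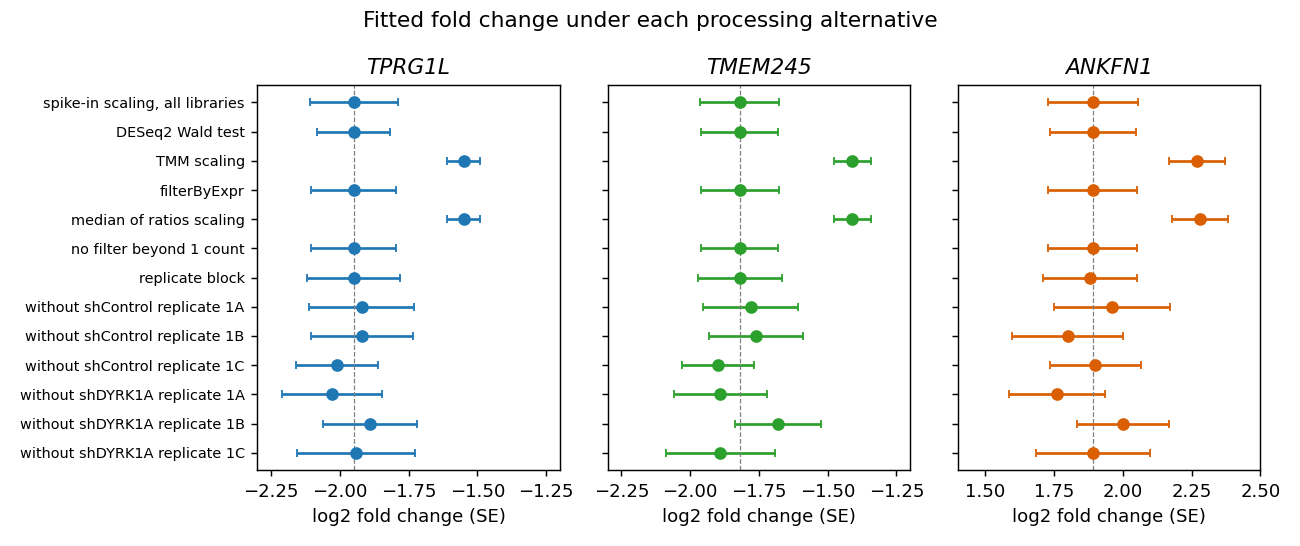
Log2 fold change (horizontal axis, bars of 1 SE) of each gene with spike-in scaling and all libraries and under each of 12 processing alternatives (vertical axis); the dashed line is the value with spike-in scaling and all libraries. TMM and median-of-ratios scaling stand apart, at -1.55, -1.41 and about 2.27, and the others lie between -2.03 and -1.89, between -1.90 and -1.68 and between 1.76 and 2.0 in turn.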

How the data were processed

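RNA-seq of polyadenylated RNA was analysed for 6 T98G libraries, grouped by their titles. Per the study's methods, libraries came from a stranded mRNA kit and were sequenced as paired ends. The submitters' processing notes name STAR, DESeq2 and the builds hg38 and dm3, and the annotation release and strand setting are not given in the sources used here. The authors deposited raw gene counts per library, and a table of normalized signal for 23026 genes that equals those counts divided by 1 constant per library (largest relative deviation 5.11e-15). These constants served as size factors. The authors' own comparison table (fold changes and p-values) was not used. The number of per-sample columns without a sample was 0. Summary rows were left out of library sizes and tests. They held, as shares of reads, 8.44 to 15.65% unmapped, 2.26 to 2.49% multimapping, 3.66 to 4.81% outside features and 3.42 to 3.59% ambiguous. Table coordinates equalled GENCODE v29 for 95.83% of genes, so GRCh38 was used.

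Genes with a mean normalized count above 10 CPM of the mean library size were kept (9697 of 58174). They were fitted with edgeR 4.0.16 (glmQLFit robust, glmQLFTest), and p-values were adjusted by Benjamini-Hochberg over all 9697 genes. A gene was called when its adjusted p was under 0.05 and its log2 fold change exceeded 0.7 in size. The SE is the fold change divided by the root of the F statistic. Profiles used a pseudocount of 0.5. Other settings tried were scaling by TMM or by median of ratios, DESeq2 1.42.0, filterByExpr, genes with at least 1 count, a replicate block made of the letters, leaving out each library, and calls without a fold threshold. Levels per kilobase by the length of the principal transcript were added after seeing the data. The fit was also run on simulated counts with 200 changed genes. The size factors were taken there as exact, so that run says nothing about error in the spike-in factors. Software was R 4.3.3, Python 3.11.15 and pandas 2.3.3.

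The members and lists were chosen with earlier results of these data known. Named genes are the members, DYRK1A, the nearest gene past the filter on either side and called neighbours within 500 kb, the called and extreme genes of each list, the 3 nearest profiles, and the genes beside each member in the ranking. Genes outside this rule were named after their values were seen. Values of some list members are not reported here. PALS1 had no matching row and MPP5, its older name, was used. Promoter and microRNA sequences are from RefSeq (GRCh38.p14), and 3′ UTR sequences from GENCODE v29 transcripts.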

Additional observations from a re-analysis of the deposited data

How the results depend on the processing

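The direction of all 3 members held under each of the 12 alternatives run. The members were chosen for large changes on this same contrast, so this could hardly have come out otherwise and is no support. Only scaling on the human genes moved the members outside the range seen on leaving out each library in turn. TMM gave -1.55 for TPRG1L, -1.41 for TMEM245 and 2.27 for ANKFN1, and median-of-ratios scaling gave -1.55, -1.41 and 2.28, and the cause of the gap between the scales was not tested. Leaving out each library in turn gave -2.03 to -1.89, -1.90 to -1.68 and 1.76 to 2.0.

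Called genes were 1386 lower and 27 higher. They became 187 and 121 with TMM, 184 and 125 with median-of-ratios scaling, 2492 and 229 with filterByExpr, 2468 and 224 with no filter beyond 1 count, and 6145 and 105 without a fold threshold. With TMM 60.7% of calls were falls, against 98.1%. Leaving out each library gave 908 to 2093 lower (2093 without shControl 1C, 2083 without shDYRK1A 1A, 908 without shDYRK1A 1B) and 16 to 32 higher (16 without shControl 1C). The 2 neighbours called lower became 1 with TMM and with median-of-ratios scaling, 5 with filterByExpr and without a filter, where more genes are tested, 9 without a fold threshold, and 2 to 3 with a library left out. The 5 synaptic vesicle genes called lower became 0, 0, 11, 11 and 22 under the same settings in that order and 5 to 10 with a library left out, and 0 higher became 1 with TMM and with median-of-ratios scaling. The 0 polarity genes called lower became 2 with filterByExpr and without a filter, 15 without a fold threshold, and 0 to 2 with a library left out. Without a fold threshold the counts were thus 9 of 14 neighbours, 22 of 37 vesicle genes and 15 of 18 polarity genes, beside 6145 of all 9697 genes. For the looser filters no number tested is given, so their counts cannot be set against a share and say nothing about the lists.

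Same-lettered libraries of both groups deviated together across genes with correlations of 0.151 (1A), 0.073 (1B) and 0.128 (1C), and each correlated best with its own letter, a hint from the data and not from the design. With the letter as a replicate block the members were at -1.95, -1.82 and 1.88, and 1394 genes were lower and 28 higher. At 241 to 329 counts in shControl, ANKFN1 is the member whose level rests on the fewest reads.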
